A study of Mus musculus with 672 samples.

Results

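The cells described here are E15.25 acinar and duct cells of the mouse embryonic pancreas, 133 of the 261 E15.25 cells that passed quality limits and of 601 such cells in the whole series of 672. They were chosen by the reads of 7 genes. Levels are in CPM, the depth-scaled count of a cell's reads on a gene relative to its reads on all genes. To be kept, a cell needed 100000 or more reads assigned to genes, 1500 or more detected genes and no more than 20% of reads from mitochondrially encoded genes. An epithelial cell also had Epcam, an adhesion molecule of epithelia, at 30 CPM or more, the fibrillar collagen gene Col3a1 under 300 CPM and the endocrine factor gene Neurod1 under 30 CPM. Of the 146 E15.25 cells that met these limits, 90 were acinar, with the carboxypeptidase gene Cpa1 at 2000 CPM or more and Ptf1a or Rbpjl at 30 CPM or more. A further 43 were duct, with Cpa1 under 2000 CPM and Spp1, the osteopontin gene, at 1000 CPM or more. The other 13 cells were in neither.

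All cells came from C57BL/6 embryos, with no further genotype or treatment in the labels, and were sorted 1 per well after antibody staining that the labels do not specify. The 3 E15.25 plates, called tip 1, tip 2 and trunk 2, hold cells from the tips of buds 1 and 2 and from the trunk of bud 2. Because bud 2 gave a tip and a trunk plate, fewer than 3 samples may be independent. The earlier age, E13.25, has 4 plates with no region in the labels. Separate embryos for separate plates are not stated in the labels, so p-values here rest on plate-to-plate spread that could be technical. The protocol attached to the E15.25 cells names E13.25 embryos, and the age labels were followed.

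The embryonic pancreas grows as a branching epithelium with tips and trunks. Tips give rise to acinar cells, which make digestive proenzymes on rough endoplasmic reticulum, pack them in zymogen granules and release them when stimulated. The trunk gives rise to duct cells, which line the tubes, carry a primary cilium and move bicarbonate and water, and to endocrine cells, which pass through a Neurog3 stage. PTF1, the complex of Ptf1a with an E protein and Rbpjl, binds an E-box next to a TC-box in the promoters of digestive enzyme genes.

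The promoters of the digestive enzyme genes are shown because these genes differed most as a group. RefSeq promoter windows of the GRCm38.p6 build run from 250 bases before to 50 after a start. They were found for 30 of 39 genes (the digestive enzyme list and Cpa1) and for 23 of 34 genes (the duct and trunk list and Spp1). Searched on both strands for an E-box (CANNTG) and a TC-box (TTTCCC) with 3 to 40 bases between them, 11 of 31 windows of the enzyme genes held the pair (35.5%), against 1 of 27 windows of the duct genes (3.70%) and 7.52% of all 32817 windows. An E-box, with or without a TC-box, was in 83.9%, 81.5% and 72.3% of these windows and a TC-box, with or without an E-box, in 41.9%, 29.6% and 25.2%. The boxes do not overlap each other, trypsinogen genes share sequence, and a match is only a match of letters. The 250 bases before the start are printed for 4 enzyme genes that were higher in acinar cells, all of which hold the pair. The boxes of a pair are in capitals (GGGAAA is a TC-box on the other strand). Pnliprp1, Amy2b, Cela3b and Rnase1, also higher in acinar cells, had no pair in their windows. The windows are Ctrb1 at chr8:111691011-111691260 (minus strand), Cela1 at chr15:100687921-100688170 (minus strand), Prss1 at chr6:41458680-41458929 (plus strand) and Cel at chr2:28563404-28563653 (minus strand).
Ctrb1: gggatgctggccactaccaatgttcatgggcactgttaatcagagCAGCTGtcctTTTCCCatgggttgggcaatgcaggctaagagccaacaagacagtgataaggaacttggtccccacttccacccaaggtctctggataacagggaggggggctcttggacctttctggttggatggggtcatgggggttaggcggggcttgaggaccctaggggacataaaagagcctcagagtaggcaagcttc
Cela1: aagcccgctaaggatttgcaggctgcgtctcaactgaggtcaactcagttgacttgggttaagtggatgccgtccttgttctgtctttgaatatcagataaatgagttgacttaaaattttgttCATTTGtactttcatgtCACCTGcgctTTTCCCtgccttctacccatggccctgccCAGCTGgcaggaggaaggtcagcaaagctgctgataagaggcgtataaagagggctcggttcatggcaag
Prss1: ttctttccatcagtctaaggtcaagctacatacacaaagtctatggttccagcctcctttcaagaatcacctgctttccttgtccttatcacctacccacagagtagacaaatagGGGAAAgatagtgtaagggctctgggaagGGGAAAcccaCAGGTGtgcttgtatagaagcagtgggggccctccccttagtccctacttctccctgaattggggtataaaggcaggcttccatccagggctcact
Cel: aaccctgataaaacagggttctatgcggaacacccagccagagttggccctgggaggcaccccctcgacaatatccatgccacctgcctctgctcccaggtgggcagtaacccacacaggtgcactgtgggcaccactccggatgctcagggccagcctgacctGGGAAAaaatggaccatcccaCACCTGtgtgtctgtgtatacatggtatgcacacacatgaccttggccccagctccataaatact
In Ctrb1, Cela1 and Prss1 an E-box and a TC-box lay 4 bases apart, and in Cel 15 bases apart.

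The gate genes were read as a description, since they made the sides. Cpa1 had 19385, 12804 and 17761 CPM in the acinar sums of tip 1, tip 2 and trunk 2 and 164, 117 and 108 CPM in the duct sums. Spp1 had 108, 676 and 860 CPM in the acinar sums and 17819, 19630 and 24726 CPM in the duct sums. The acinar factors Ptf1a and Rbpjl had 412, 259 and 299.6 CPM and 1014, 1581 and 893 CPM in acinar sums, against 2.58 to 4.43 CPM and 5.71 to 11.7 CPM in duct sums. Epcam had 861 to 996 CPM in acinar and 1002 to 1847 CPM in duct sums, a small gap next to those of Cpa1 and Spp1. Neurod1 had at most 2.48 CPM in any of these sums.

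Just inside the cuts, the 3 acinar cells with the least Cpa1 had 2335, 2972 and 3073 CPM. The 3 duct cells with the most Cpa1 had 675, 1280 and 1379 CPM, and those with the least Spp1 had 1566, 4328 and 4343 CPM. Just outside, the cells in neither gate with the most Cpa1 had 1930 and 1934 CPM and the one with the most Spp1 had 937 CPM. Spp1 reached 1000 CPM in 14 of the 90 acinar cells, 1 in tip 1, 5 in tip 2 and 8 in trunk 2. These cells had a median of 90.01 CPM of Sox9, 53.6 of Bicc1 and 54.5 of Dcdc2a, duct genes described below.

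**Figure D1:**
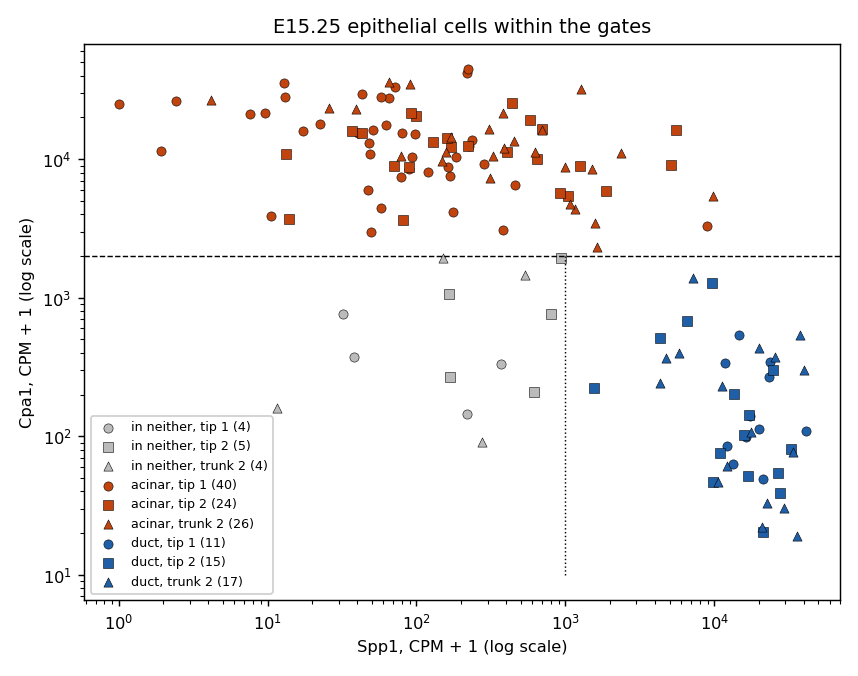
Cpa1 against Spp1 in the 146 E15.25 epithelial cells (CPM + 1, both axes logarithmic), by plate (marker) and side (colour). The dashed line is the Cpa1 limit of 2000 CPM and the dotted line the Spp1 limit of 1000 CPM for duct cells. The 43 duct cells lie at or above 1566 CPM of Spp1, and 14 acinar cells reach 1000 CPM.

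Acinar cells were 45.98% of the kept cells of tip 1 (40 of 87, exact 95% interval 35.2% to 57%), 28.2% of tip 2 (24 of 85) and 29.2% of trunk 2 (26 of 89). Duct cells were 12.6% (11 cells), 17.6% (15 cells) and 19.1% (17 cells). The trunk plate thus held acinar cells and both tip plates held duct cells. Sums held 14934908 to 51294860 reads, and the median cell of a sum had 865380 to 1124500 reads and 8926 to 9859 genes. Mitochondrially encoded genes took a median of 6.31% to 7.34% of a cell's reads in the acinar sums and 4.01% to 6.16% in the duct sums, and the part of this in the results was not tested. No 2 cells had identical counts.

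Of 14696 genes tested, 180 (1.22%) were higher in acinar cells and 110 (0.749%) lower, by edgeR's quasi-likelihood test with the plate as block and adjusted p under 0.05, together 290 (1.97%). An unadjusted p under 0.05 was reached by 2687 of these 14696 genes, and DESeq2 called 1233 higher and 1332 lower. Log2 differences are acinar minus duct after TMM scaling, which moved the median of all genes by 0.328 against plain library sizes, to 0.0876. Levels in CPM carry no such scaling. With no TMM scaling 174 genes were higher and 256 lower, so higher genes were 62.1% of the calls with it and 40.5% without. Leaving out any plate cut the number of calls: without tip 1 there were 75 higher and 19 lower, without tip 2 there were 27 and 4, and without trunk 2 there were 37 and 3. Such a fit has fewer sums to measure spread with, which cannot be told apart here from an effect of the plate left out. Of the 290 called genes 93, 29 and 39 stayed called in these 3 fits, and all that could be fitted kept their sign. Genes that vary with the gate genes from cell to cell had to differ between the sides, so the calls describe what goes with the gates. With 3 plates the test can miss true differences, and a gene that did not pass is not shown to be alike on both sides.

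Digestive enzyme mRNA was far more abundant in acinar than in duct cells. Summed over the enzyme list, which leaves out the gate gene Cpa1, the acinar sums of tip 1, tip 2 and trunk 2 had 158790, 150750 and 140570 CPM. The duct sums had 1316, 1538 and 1232 CPM and the mesenchymal sums 1633, 1311 and 1357 CPM. Of 38 listed genes besides Cpa1, 37 had reads and 34 passed the filter on low counts. Of these 34, 27 were higher and none lower (33 higher by DESeq2), and all were higher in acinar cells in each of the 3 plates, as were 16.6% of all genes tested. The median difference was 7.14, or 7.12 with Pnlip at the bound given below. The call count was 24 without tip 1, 14 without tip 2 and 18 without trunk 2. Reads that near-identical trypsinogen, amylase and elastase copies share may be split among them.

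Ctrb1, a chymotrypsinogen gene, had 67135, 56196 and 56261 CPM in the acinar sums and 491, 490 and 427 CPM in the duct sums. Its log2 difference was 7.32 (SE 0.163, edgeR adjusted p = 0.000705, n = 3 plates). Pnliprp1, a gene related to pancreatic lipase, had 51582, 49845 and 45130 CPM against 469, 602 and 354 CPM. The sides lay far apart in every plate and the plates of a side close together. Clps, the colipase that lipase needs to act, had 15173, 18349 and 14989 CPM against 165, 189 and 198 CPM. Cel, an ester lipase activated by bile salts, had 3187, 3206 and 2904 CPM against 20.6, 26.6 and 36.7 CPM. Acinar levels of Pnliprp1 and Cel varied little between plates.

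The trypsinogen gene Prss2 and the amylase gene Amy2b varied more. Prss2 had 873, 1616 and 486 CPM in the acinar sums and 20.2, 17.3 and 5.17 CPM in the duct sums. Amy2b had 1856, 2938 and 1604 CPM against 15.18, 27.3 and 10.02 CPM. For both genes tip 2 was the highest acinar sum and trunk 2 the lowest. Prss1 had 1189, 1336 and 1386 CPM against 8.48, 12.3 and 13.5 CPM, and the elastase gene Cela1 had 1932, 2106 and 1917 CPM against 17.6, 16.9 and 13.7 CPM. The elastase Cela3b, the ribonuclease Rnase1, and the trypsinogens Try5 and Try10 were also called, with log2 differences of 7.68, 6.71, 7.52 and 7.11. Of the 290 genes called, 17 stayed called under all 15 alternatives run, the ones without a plate included. Of these 17, 13 were of the enzyme list, among them Prss1, Prss2, Amy2b, Cela1, Cela3b, Rnase1, Try5, Try10, Cel, Ctrb1, Pnliprp1 and Clps.

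Among cells, Ctrb1 ran from 5256 CPM to 165400 CPM in the 90 acinar cells (median 53420 CPM) and from 68 to 5554 CPM in the 43 duct cells (median 378 CPM), so the ranges met only at their ends. Prss1 was less even, with 81 of 90 acinar cells at 10 CPM or more, a median of 310 CPM and a highest value of 8718 CPM. It reached 10 CPM in 22 of 43 duct cells.

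Enzyme reads in duct cells were set beside those in cells of another kind on the same plates. The 47 mesenchymal cells of the 3 plates (Col3a1 at 300 CPM or more, Epcam under 30 CPM) had 656, 465 and 510 CPM of Ctrb1, and 25 of them had 10 CPM or more of Prss1. Over the 34 enzyme genes the median ratio of the duct to the mesenchymal level was 0.916, and 21 genes were at least as high in mesenchymal cells. The source of these reads in duct and mesenchymal cells was not tested.

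Enzyme list members outside the calls were Ctrc, Cela3a, Pnlip, Gp2, Pla2g1b, Ctrl and Tff2. Ctrc, the chymotrypsin C gene, had 14.6, 9.58 and 16.1 CPM in acinar sums and 3 reads in all duct sums together, a ratio of 285 (counting interval 97.2 to 1382, adjusted p = 0.0627). Pnlip, the classical pancreatic lipase gene, had 1.68, 1.95 and 1.53 CPM in acinar sums and no read in duct sums, at least 35.2-fold higher against a floor of 3 reads over the duct sums (adjusted p = 0.13). Dmbt1, Cuzd1 and Reg3b did not pass the filter on low counts, and Reg2 had no read on either side. Among the called genes the granule proteins Sycn and Zg16 had log2 differences of 4.25 and 7.52, and the trypsin inhibitor Spink1 had one of 6.74.

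**Figure D2:**
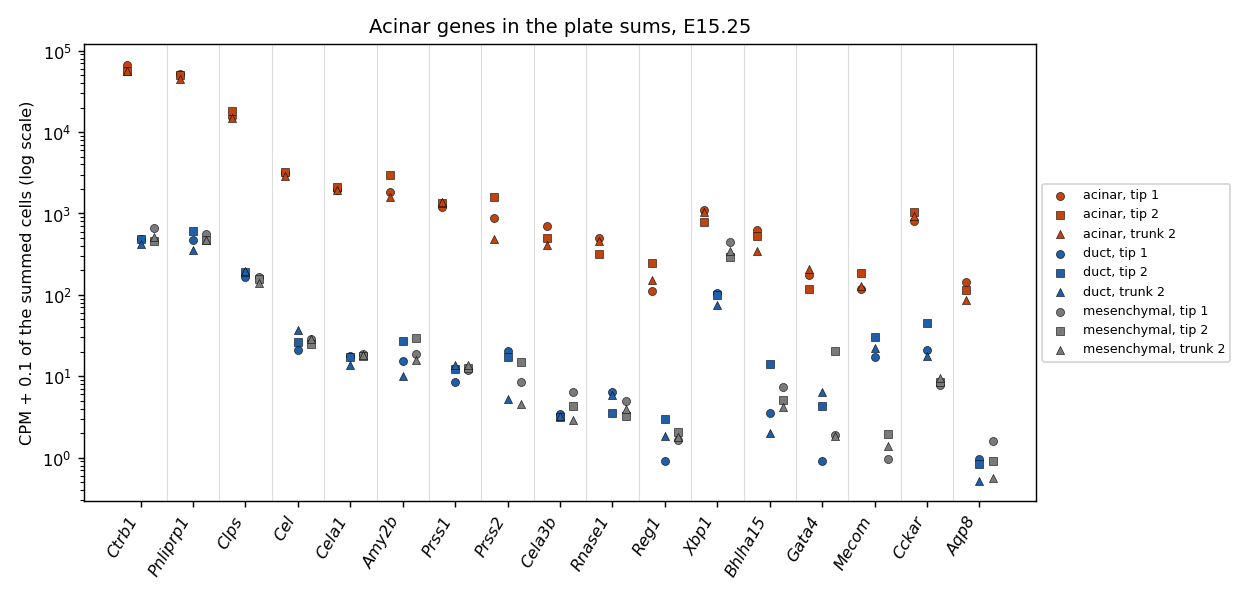
CPM + 0.1 (logarithmic axis) of 17 acinar genes in the summed acinar, duct and mesenchymal cells of each E15.25 plate. For the enzyme genes from Ctrb1 to Reg1 the acinar points lie apart from the duct points, which share the range of the mesenchymal points. For Mecom and Cckar the duct points lie above the mesenchymal ones.

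Transcription factors of acinar cells were higher for 5 of 16 tested, Xbp1, Bhlha15, Mecom, Id1 and Gata4, with none lower and a median of 2.44 (8 higher and 1 lower by DESeq2). Without tip 1, tip 2 or trunk 2 the calls were 3, 2 and 0. Xbp1, which drives the growth of the secretory apparatus, had 1098, 790 and 1048 CPM in acinar and 106, 99.6 and 74.1 CPM in duct sums (log2 difference 3.72, SE 0.239, edgeR adjusted p = 0.0063). Bhlha15, also called Mist1, a factor of secretory cell maturation, had 632, 534 and 349 CPM against 3.44, 13.9 and 1.89 CPM. It reached 10 CPM in 88 of 90 acinar cells, 6 of 43 duct cells and 11 of 47 mesenchymal cells. Gata4, a factor of the early pancreas, had 177, 118 and 206 CPM against 0.799, 4.22 and 6.28 CPM. Mecom had 116, 184 and 129 CPM against 17.1, 30.3 and 22 CPM, with 0.857 to 1.84 CPM in mesenchymal sums.

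Genes of proteins that pair with Ptf1a did not pass the test. The E protein gene Tcf3 had 69.7, 45 and 81.9 CPM in acinar and 343, 190 and 107 CPM in duct sums (log2 difference -1.27, adjusted p = 0.221). Tcf12 had a log2 difference of -0.14 (adjusted p = 0.867) and Rbpj one of -0.95 (adjusted p = 0.447). The nuclear receptor gene Nr5a2, needed for acinar enzymes, had 94.9, 96.4 and 118 CPM against 53.3, 100.3 and 33.3 CPM (adjusted p = 0.254), with the sides overlapping. Nr0b2 and Foxa3 had log2 differences of 3.14 and 2.75 with adjusted p of 0.0917 and 0.205.

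Secretion machinery was higher for 8 of 26 genes and lower for none (median 2.79, and 13 higher by DESeq2). The calls without tip 1, tip 2 or trunk 2 were 7, 2 and 1. Cckar, the cholecystokinin receptor through which acinar cells are stimulated, had 799.9, 1035 and 924 CPM in acinar and 20.9, 45.6 and 17.6 CPM in duct sums (log2 difference 5.49, SE 0.330, edgeR adjusted p = 0.00526). It was at 10 CPM or more in 90 of 90 acinar cells and 22 of 43 duct cells, against 19 of 47 mesenchymal cells. The water channel Aqp8 had 142, 115 and 85.8 CPM against 0.860, 0.737 and 0.423 CPM, and Aqp12 had 32.9, 72.7 and 46.2 CPM against 0.307, 0.469 and 0.0325 CPM. Erp27, of the pancreatic endoplasmic reticulum, had a log2 difference of 7.36 and Fam129a one of 5.11. Pdia2, a disulfide isomerase, and the granule GTPase Rab3d, with Tmed6 of cargo transport, completed the 8 (7.15, 3.51 and 5.34), and were named after their values were seen, as were Herpud1, Manf, Lamb1 and Cldn18 below.

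Genes of the endoplasmic reticulum moved by less than the enzymes. Of 31 folding and stress genes 6 were higher (20 by DESeq2), Dnajc3, Sel1l, Edem2, Edem1, Herpud1 and Manf, with a median of 1.57. Of the 31 differences 30 were positive, as were 7824 of 14696 over all genes tested. The calls were 3 without tip 1, 0 without tip 2 and 2 without trunk 2. Edem2, which marks misfolded glycoproteins for disposal, had 855, 740 and 744 CPM against 67.8, 66.1 and 24.2 CPM, and Edem1 had 518, 542 and 545 CPM against 39, 40.6 and 74.3 CPM. Sel1l, of the complex that carries them out, had a log2 difference of 2.27 and the co-chaperone Dnajc3 one of 2.62. Hspa5, the main chaperone of this compartment, had 2382, 2373 and 1677 CPM against 869, 1071 and 1278 CPM, apart in every plate but not past the test (log2 difference 1.33, adjusted p = 0.0888).

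The translocation list, which brings new proteins into the endoplasmic reticulum, had 4 of 30 genes higher and none lower (16 and 1 by DESeq2), Ssr1, Sec61b, Ssr2 and Rpn1, with log2 differences of 2.19, 2.02, 1.55 and 1.85. The median was 1.24, and leaving out any of the 3 plates left no call in this list. Amino acid genes were higher for 4 of 28 and lower for none (median 1.80, with 18 and 2 by DESeq2). Asns, which makes asparagine, had 486, 395 and 265 CPM against 4.67, 11.1 and 1.69 CPM. Gamt, of creatine synthesis, had 629, 509 and 526 CPM against 16.6, 17.6 and 29.97 CPM. Gnmt and Cbs, of the methionine cycle and the step to cysteine, had log2 differences of 6.32 and 3.06. Without tip 1, tip 2 or trunk 2 the calls in this list were 2, 1 and 1.

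Genes of the duct and trunk list were lower in acinar cells where they were called. Of 33 duct and trunk genes 11 were lower in acinar cells and none higher (18 lower and 1 higher by DESeq2), with a median of -1.48. In 24 of 33 the duct sum was above the acinar sum in all plates, as in 28.5% of all genes tested. The calls were 3 without tip 1, 1 without tip 2 and 0 without trunk 2. The median ratio of the duct to the mesenchymal level was 71.7, and 3 of 33 genes were at least as high in mesenchymal cells.

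Bicc1, an RNA-binding protein needed for tubules, had 1111, 976 and 785 CPM in duct and 46.8, 70.3 and 42.9 CPM in acinar sums (log2 difference -3.86, SE 0.231, edgeR adjusted p = 0.00514). Dcdc2a, a ciliary protein, had 569, 425 and 600.1 CPM against 3.51, 17 and 11 CPM in acinar sums. It reached 10 CPM in all 43 duct cells, 20 of 90 acinar cells and 4 of 47 mesenchymal cells. Nkx6-1, a factor of the trunk, had 177, 119 and 123 CPM against 19.3, 19.4 and 17 CPM. Pkhd1, mutated in recessive polycystic kidney disease, and the factor Glis3 had log2 differences of -3.63 and -4.89.

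Keratins of simple epithelia differed by unequal amounts. Krt7 had 1312, 542 and 792 CPM in duct and 54.1, 85.1 and 61.2 CPM in acinar sums, and Krt19 had 430, 205 and 345 CPM against 46.8, 20.5 and 26.5 CPM. Krt8 had 2028, 1527 and 2291 CPM against 568, 444 and 814 CPM, a smaller log2 difference of -1.38 (SE 0.153, edgeR adjusted p = 0.0225). Its partner Krt18 had -0.92 (adjusted p = 0.0723). Annexins Anxa2 and Anxa5 had 964, 747 and 960 CPM and 586, 546 and 638 CPM in duct sums, with differences of -3.66 and -2.95, and mesenchymal sums held them at 692 to 757 CPM and 513 to 546 CPM.

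Sox9, the best known factor of the trunk, had 349, 336 and 613 CPM in duct and 56.7, 112 and 69.2 CPM in acinar sums. The sides did not overlap, as for 30.3% of all genes tested, but the test was not passed (log2 difference -2.12, edgeR adjusted p = 0.0676). Sox9 was at 10 CPM or more in 74 of 90 acinar cells and 40 of 43 duct cells, against 5 of 47 mesenchymal cells. Hes1, a target of Notch, had 607, 583 and 859 CPM in acinar and 190, 362 and 1287 CPM in duct sums, and the sides overlapped (log2 difference 0.93, adjusted p = 0.411). Cftr, the chloride channel of ducts, had 0.492, 12.9 and 11 CPM in duct sums and 4 reads in all acinar sums (adjusted p = 0.0676). Clu, Muc1 and Cd24a, of the same list, differed by -0.54, -0.33 and -0.28 without passing (adjusted p of 0.182, 0.658 and 0.444).

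Of the 33 duct and trunk genes 6 had a positive difference, and none of these was called. Nkx6-2, a relative of Nkx6-1, had 2.11, 3.79 and 2.10 CPM in acinar sums and no read in duct sums, at least 51.9-fold higher against 3 reads over the duct sums, but did not pass (adjusted p = 0.126). Ambp had 861, 877 and 814 CPM against 409, 599.5 and 694 CPM in duct sums (log2 difference 0.94, adjusted p = 0.137).

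**Figure D3:**
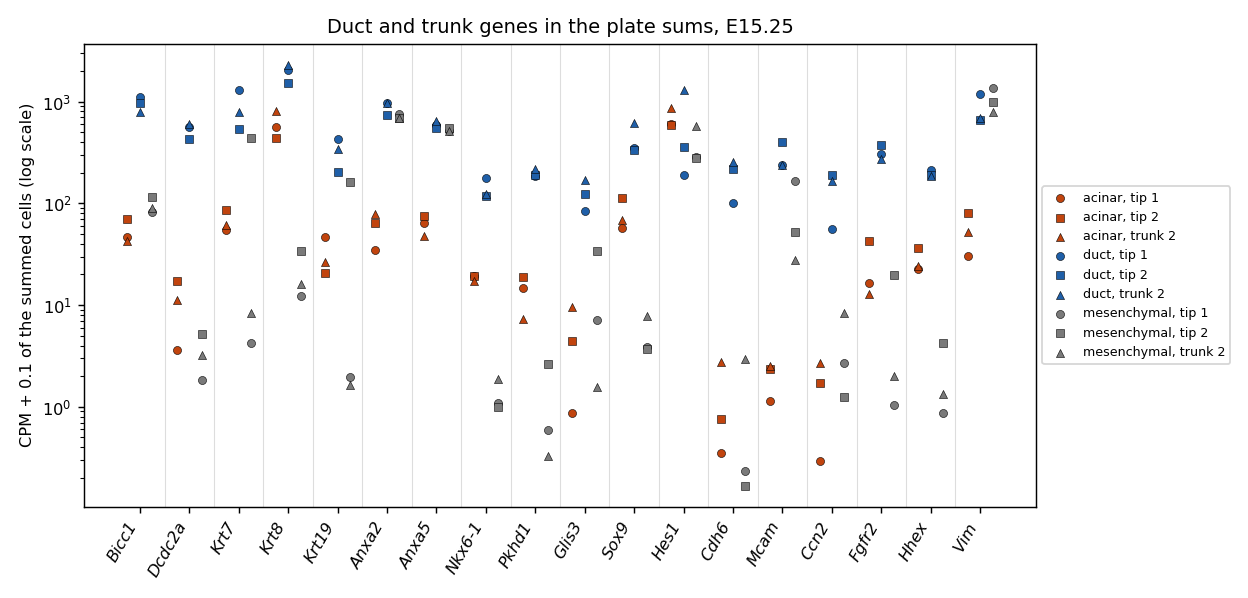
CPM + 0.1 (logarithmic axis) of 18 genes in the summed acinar, duct and mesenchymal cells of each E15.25 plate. The duct points lie above the acinar points for the genes drawn other than Hes1, where 1 duct sum of 1287 CPM is the highest and 1 of 190 CPM the lowest. For Vim the mesenchymal points, 799 to 1347 CPM, overlap the duct points, 666 to 1192 CPM.

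Fluid and ion transport genes went both ways. Of 24 tested, Slc26a9, Car9 and Cldn10 were higher and Atp1b1 lower. With no TMM 2 were higher and 4 lower, and by DESeq2 7 and 10, so the balance of directions turned. Slc26a9, an anion transporter, had 123, 111 and 65.9 CPM in acinar and 0.676, 0.670 and 1.14 CPM in duct sums. Car9, a carbonic anhydrase, had 258, 287 and 314 CPM against 45.9, 68.5 and 63.7 CPM, and the claudin Cldn10 had 599.5, 695 and 588 CPM against 266, 346 and 161 CPM. Atp1b1, a subunit of the sodium pump, had 584, 826 and 910 CPM in duct and 79.2, 161 and 136 CPM in acinar sums. Without tip 1 or tip 2 none of the 4 was called and without trunk 2 only 1 higher gene was. Among 43 genes of primary cilia 33 differences were negative (median -1.08), as were 6872 of 14696 over all genes tested. Only Tmem67, of the ciliary transition zone, passed by edgeR (log2 difference -4.85, adjusted p = 0.0472), and 11 of the list were lower by DESeq2.

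Signalling lists held few calls each. Of 29 Notch genes the coactivator Maml2 was lower in acinar cells, with 1.44, 0.728 and 1.60 CPM against 37.6, 46.5 and 67.4 CPM. The receptor Notch2 had 7.14, 10.9 and 10.1 CPM against 70.4, 72.3 and 84 CPM and just missed the threshold (log2 difference -2.70, edgeR adjusted p = 0.0536). Notch1 had a difference of 1.24 (adjusted p = 0.229), Jag1, a ligand, 0.27 (adjusted p = 0.82) and Hey1, a target, -1.04 (adjusted p = 0.85). Of 26 Hippo genes the YAP targets Ankrd1 and Ccn2 were lower in acinar cells. Ccn2 had 55.6, 190 and 168 CPM in duct and 0.195, 1.61 and 2.60 CPM in acinar sums. Ankrd1 had 46.3, 51 and 15.7 CPM against 0.078, 0.306 and 0.0667 CPM. Ccn2 kept its call without tip 1 (adjusted p = 0.0293) but not without tip 2 or trunk 2 (0.113 and 0.0898), and Ankrd1 lost it without any of the 3 plates (0.0874 to 0.144).

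Growth factor genes also split. Fgfr2, the receptor for FGF10 of the mesenchyme, had 306, 379 and 275 CPM in duct and 16.2, 42.8 and 12.9 CPM in acinar sums (log2 difference -3.61, edgeR adjusted p = 0.0215). Hbegf, a ligand of the EGF receptor, had 150, 122 and 181 CPM in acinar and 29.2, 29.5 and 47.9 CPM in duct sums (log2 difference 2.44, adjusted p = 0.032). Fgfr3 had 336, 163 and 318 CPM in duct and 3.82, 16.9 and 9.01 CPM in acinar sums and did not pass (adjusted p = 0.0547). Of 35 Wnt and TGF-beta family genes the ligands Wnt7b (303, 116 and 113 CPM in duct, 1.07, 1.95 and 2.14 CPM in acinar sums) and Tgfb2 (log2 difference -4.47) were lower in acinar cells. Id3, an inhibitor of differentiation factors, was higher, with 201, 156 and 75.9 CPM against 2.58, 6.90 and 1.53 CPM. Leaving out tip 1 left 1 call in the Wnt and TGF-beta list and none in the Notch and growth factor lists, and leaving out tip 2 or trunk 2 left none in any of the 3.

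Adhesion and basement membrane genes were lower in acinar cells for 6 of 33 and higher for 1. Mcam, an adhesion molecule, had 238, 401 and 238 CPM in duct and 1.03, 2.26 and 2.44 CPM in acinar sums (log2 difference -6.98, SE 0.396, edgeR adjusted p = 0.00503). Cdh6, a cadherin, had 100.3, 219 and 256 CPM against 0.253, 0.651 and 2.64 CPM. Among the others, the laminin genes Lama1 and Lamb1 and the collagen gene Col4a1 had differences of -6.47, -1.92 and -3.61. Cldn18, a claudin, had 19.6, 10.04 and 13.4 CPM in acinar sums and 1 read in duct sums. The calls without tip 1, tip 2 or trunk 2 were 2, 0 and 2.

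Some of these duct genes are shared with mesenchyme. Of 17 mesenchyme markers tested, Vim and Fn1 were higher in duct cells and Pdgfrb in acinar cells. Vim had 1192, 666 and 692 CPM in duct, 30.1, 80.4 and 52.5 CPM in acinar and 1347, 997 and 799 CPM in mesenchymal sums. Fn1 had 152, 375 and 288 CPM in duct and 39.2 to 93.5 CPM in mesenchymal sums. Summed over 18 markers the duct sums had 1421, 1186 and 1065 CPM, the acinar sums 116, 326 and 241 CPM and the mesenchymal sums 16096 to 21274 CPM. Vim and Fn1 made up most of the duct sums. Of the 17 differences 13 were positive (median 0.85), as were 7824 of 14696 over all genes tested. In all plates 9 of the markers were higher in acinar cells and 3 higher in duct cells. Col3a1, a gate gene, was at 25.1 to 45.7 CPM in duct and 25.3 to 55.2 CPM in acinar sums, against 6815 to 8799 CPM in mesenchymal sums. The gate held Col3a1 under 300 CPM in every cell of both sides, so its level was fixed by the choice of cells. Without tip 1 the list kept 1 lower call, and without tip 2 or trunk 2 none. The part of mesenchymal RNA in the duct results was not tested.

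**Figure D4:**
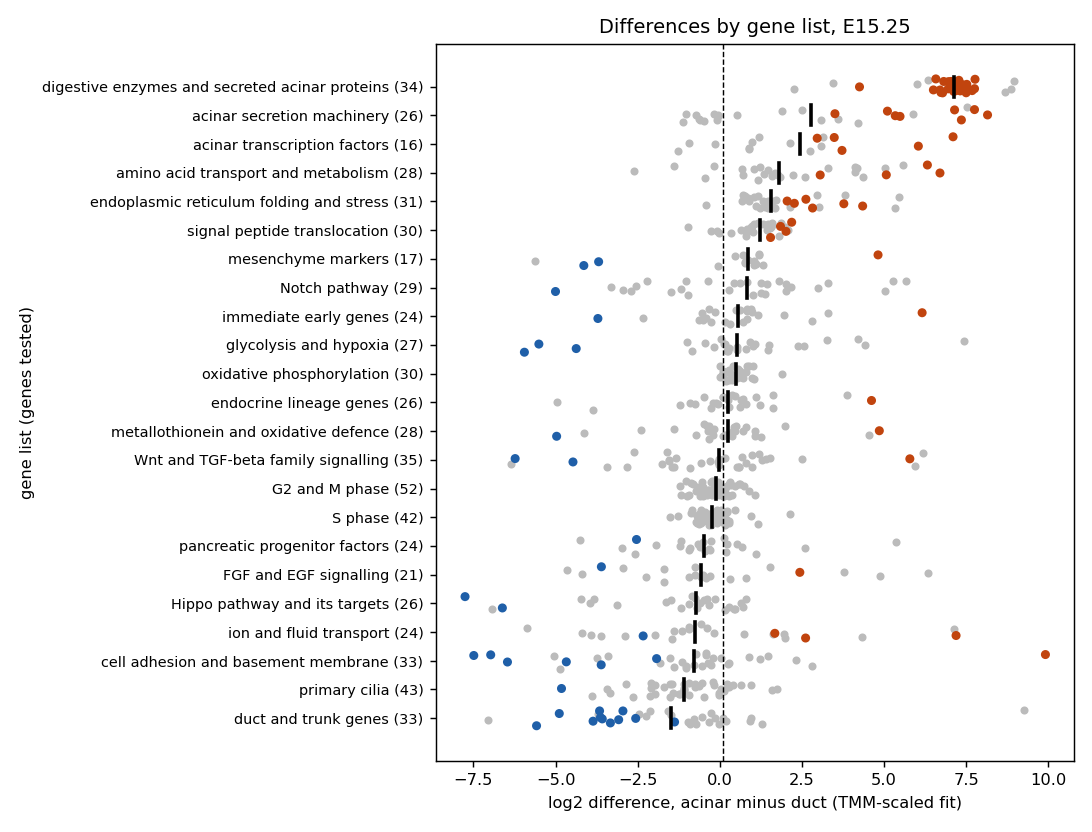
Log2 difference, acinar minus duct, of the tested genes of the 23 lists with 15 or more, ordered by median (black bar). Red points were called higher and blue points lower in acinar cells, grey points were not called, and the dashed line is the median of all genes tested, 0.0876. The enzyme list lies farthest to the right with a median of 7.14 and the duct and trunk list farthest to the left with -1.48, and genes without reads on a side (Pnlip and Nkx6-2) stand at fitted values that are no bound.

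Progenitor and endocrine genes held 1 call each, and leaving out any of the 3 plates left none. Cpe, a prohormone-processing enzyme, was the call among 26 endocrine genes, with 194, 121 and 119 CPM in acinar, 4.06, 14.7 and 6.09 CPM in duct and 563 to 1240.4 CPM in mesenchymal sums. Hhex, a factor of the early foregut, was the only call among 24 progenitor factors, with 211, 192 and 187 CPM in duct and 22.5, 36 and 24.2 CPM in acinar sums. Pdx1, of the whole early pancreas, had 43.9, 21 and 37.5 CPM in duct and 33.1, 22 and 36.8 CPM in acinar sums (log2 difference 0.20, adjusted p = 0.848). Gata6 had a difference of -0.46 (adjusted p = 0.655). Neurog3, the endocrine progenitor factor, had 99.5, 307 and 21.1 CPM in duct sums and 1.72 to 2.50 CPM in acinar sums without passing (log2 difference -4.96, adjusted p = 0.0847). These reads came from few cells: 5 of 43 duct cells had 30 CPM or more, with a highest value of 5976 CPM. Without them 151 genes were higher and 80 lower over all genes.

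Proliferation genes gave no calls. None of 42 S phase and 52 G2 and M phase genes was called by edgeR (3 and 4 at an unadjusted p under 0.05, 2 and 2 by DESeq2), with medians of -0.25 and -0.13. Over all genes tested, 2687 of 14696 had an unadjusted p under 0.05. Mki67, a protein of cycling cells, had 255, 246 and 412 CPM in acinar and 315, 250.2 and 405 CPM in duct sums. Top2a had 229, 268 and 401 CPM against 532, 419 and 367 CPM. The sides overlapped for both genes. Mki67 reached 10 CPM in 34 of 40, 18 of 24 and 24 of 26 acinar cells of tip 1, tip 2 and trunk 2 and in 6 of 11, 10 of 15 and 11 of 17 duct cells. These Mki67 shares were higher in acinar cells in each plate (75% to 92.3% against 54.55% to 66.7%). For Top2a the shares were 72.5%, 83.3% and 73.1% in acinar and 81.8%, 73.3% and 70.6% in duct cells. In tip 1 the Top2a share was thus higher in duct cells. The differences in shares were not tested.

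Of 28 genes of metallothionein and oxidative defence 1 was higher and 1 lower. Gstm1, a glutathione transferase, had 1035, 933 and 910 CPM in acinar and 45.8, 43.5 and 35.7 CPM in duct sums and kept its call under all 15 alternatives (log2 difference 4.86, SE 0.199, edgeR adjusted p = 0.00159). Gpx2, a glutathione peroxidase, was lower (-4.97). The metallothioneins Mt1 and Mt2 had differences of 1.06 and 0.79 without passing (adjusted p = 0.0627 and 0.11). Aldh1a1, which makes retinoic acid, had 91.3, 128 and 74.6 CPM in acinar and 5.90, 1.34 and 14.6 CPM in duct sums (adjusted p = 0.0958), and Aldh1b1 had a difference of 1.997 (adjusted p = 0.0805). Among 27 genes of glycolysis and hypoxia, the glucose transporter Slc2a2, the aldolase Aldoc and the lactate dehydrogenase subunit Ldhb were lower in acinar cells (-5.51, -5.95 and -4.37), with 2 calls left without tip 1 and none without tip 2 or trunk 2. Ldha, the other subunit, had 1.47 (adjusted p = 0.0547).

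Aldoc had 359, 265 and 533 CPM in duct and 1.42, 4.94 and 14 CPM in acinar sums. Ldhb had 91.7, 118 and 111 CPM in duct and 1.58, 6.24 and 6.74 CPM in acinar sums. None of 30 genes of oxidative phosphorylation was called by edgeR (11 at an unadjusted p under 0.05, 1 by DESeq2). Over all genes tested, 2687 of 14696 had an unadjusted p under 0.05. Of the 30 differences 29 were positive, as were 7824 of 14696 over all genes tested. The median of this list was 0.51, and 0.18 with no TMM. In all plates 11 of its genes were higher and 3 lower in acinar cells. The list summed to 9387.5, 8262.6 and 8603.4 CPM in acinar and 9380.6, 7345.5 and 7800.2 CPM in duct sums. Immediate early genes, which respond to stress and handling, gave Klf2 higher and Ier3 lower among 24, with no call left when any plate was left out. Fos had 3179, 1793 and 3953 CPM in acinar and 1988, 2556 and 6301 CPM in duct sums (log2 difference 0.15, adjusted p = 0.861). Summed over the list, the 3 plates ranged from 8587 to 16198 CPM in acinar and from 7691 to 21688 CPM in duct sums.

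Among called genes with a mean of 20 CPM or more on the higher side, the 10 largest differences in each direction lay partly outside the lists. Higher in acinar cells were Anxa13, Grhl3, Tdh, Aqp12, Gm10334, Scml4, Gm5409, Prss3, Amy1 and Aqp8. Anxa13, an annexin, had 20.9, 17.5 and 21.7 CPM in acinar sums and 1 read in the duct sums, a ratio of 1258 (counting interval 225 to 49695). Grhl3, an epithelial transcription factor, had 35.5, 31.3 and 16.4 CPM against 0.134 CPM or less, and Tdh, a threonine dehydrogenase, had 23.9, 34.4 and 8.31 CPM against 0.134 CPM or less. Gm10334 and the pseudogene Gm5409 lie on chromosome 6, as do the trypsinogen genes Prss1 and Prss3.

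Lower in acinar cells were Ankrd1, Cdh6, Cobl, Ptgds, Cnmd, Rasgrf1, Mcam, Slc17a4, Tmem178 and Agt. Rasgrf1, an exchange factor of Ras, had 48.2, 114 and 267 CPM in duct and 0.156, 0.651 and 2.74 CPM in acinar sums. Cobl, an actin nucleator, had 44.4, 19.2 and 32.6 CPM against 0.115 to 0.267 CPM. Agt, angiotensinogen, had 60.8, 13.26 and 13.28 CPM against 0.1001 to 0.230 CPM. Slc17a4, a phosphate transporter family member, had 63.5, 52.9 and 118 CPM against 0.175 to 1.10 CPM.

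Markers of other cell types gave 2 calls outside the mesenchyme list, Ret and Ttr. Ret, a receptor listed among neural crest genes, was higher in acinar cells, with 88.2, 115 and 83.9 CPM against 0.492 to 0.803 CPM (log2 difference 7.47, edgeR adjusted p = 0.0063). It reached 10 CPM in 56 of 90 acinar cells, 1 of 43 duct cells and 0 of 47 mesenchymal cells, which allows a share of up to 7.55% (exact 95% interval). Sox10, which defines neural crest, was at 0.230 CPM or less in acinar sums and at 11.6, 32 and 17.2 CPM in duct sums (adjusted p = 0.0652). Of 10 leukocyte markers 5 had reads and 1 was tested, and of 11 endothelial markers 1 was tested (Eng, at most 5.04 CPM). Globin reads marked a plate: Hbb-bt had 5831 CPM in the duct sum of tip 2 and 72.2 and 109 CPM in the others, with 1057 CPM in the acinar sum of tip 2 and 151 and 199 CPM in the others. None of 8 erythroid markers was called (none at an unadjusted p under 0.05, none by DESeq2), and their part in other results was not tested. Ttr, of the liver and gut list, was higher in acinar cells (816, 662 and 876 CPM against 225, 196 and 301 CPM). Ret lost its call when tip 2 or trunk 2 was left out, and Ttr when any of the 3 plates was.

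At E13.25 the same gates gave 36 cells in the acinar and 78 in the duct gate in 4 plates (7, 5, 14 and 10 against 15, 10, 30 and 23). Acinar and duct name only the gate at this age. Enzyme genes with Cpa1 took 3.17% to 4.33% of the acinar sums, against 15.8% to 17.8% at E15.25. Neurog3 reached 30 CPM in 6, 3, 8 and 8 of these duct cells by plate. At E15.25 it did so in 2 of 11, 1 of 15 and 2 of 17. Spp1 reached 1000 CPM in 2, 2, 5 and 3 of the acinar cells. At E15.25 it did so in 1 of 40, 5 of 24 and 8 of 26. The part of this in the comparison of ages was not tested. The difference between the sides at E13.25 was called for 98 genes higher and 47 lower, in a fit of both ages over 16886 genes. Of the 290 genes called at E15.25, 265 had the same sign at E13.25 and 78 were called there too. The same gate genes made the sides at both ages, so part of this agreement was fixed by the choice of cells. The share of all genes with the same sign at both ages is not given here. The enzyme list had 17 of 34 genes higher at E13.25 with a median of 5.33, against 7.13 for E15.25 in this fit. The endoplasmic reticulum list had a median of 0.46 against 1.56, with no call at E13.25 among 31 genes. The duct and trunk list had medians of -1.02 and -1.49.

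Whether the difference changed between the ages was tested as an interaction, and no gene passed by edgeR (0 of 16886, 0.0%, with 1428 at an unadjusted p under 0.05). DESeq2 called 832 (4.93%), 563 with a larger and 269 with a smaller value at E15.25. The 5 genes with the smallest p were P2rx1, Asns, Ell2, Cand2 and Marcksl1. P2rx1, an ATP-gated channel, had 462, 326, 849 and 509 CPM in acinar and 30.3, 22, 66.9 and 22.2 CPM in duct cells of E13.25. At E15.25 it had 368, 456 and 505 CPM against 2.33, 4.02 and 3.29 CPM. The fitted change of the difference was 3.32 and did not pass (SE 0.298, edgeR adjusted p = 0.0758). The duct levels of P2rx1 were lower at E15.25 than at E13.25 in every plate, while the acinar ranges overlapped. With the Cpa1 limit at 1000 CPM the change of P2rx1 was -0.07 (adjusted p = 0.999).

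Ell2, an elongation factor, was in each plate higher in the duct cells of E13.25 (25.7, 27.1, 28.7 and 5.40 CPM) than in the acinar cells (2.23, 1.81, 14.4 and 0.365 CPM), and at E15.25 higher in acinar cells (77.6, 83.2 and 153 CPM) than in duct cells (1.54, 1.61 and 2.12 CPM). Its change of 9.15 had an adjusted p of 0.0958. Asns had 43.2 to 109 CPM in acinar cells of E13.25 and 18.2 to 55.9 CPM in duct cells, and its change was 5.42 (adjusted p = 0.0958). Cand2 and Marcksl1, with differences of 0.35 and -0.07 at E13.25, had changes of -4.66 and -1.99 (adjusted p = 0.0958 for both). Without E13.25 plate 3 the change of Ell2 passed (adjusted p = 0.0174), and without plate 4 that of P2rx1 did (adjusted p = 0.0476).

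**Figure D5:**
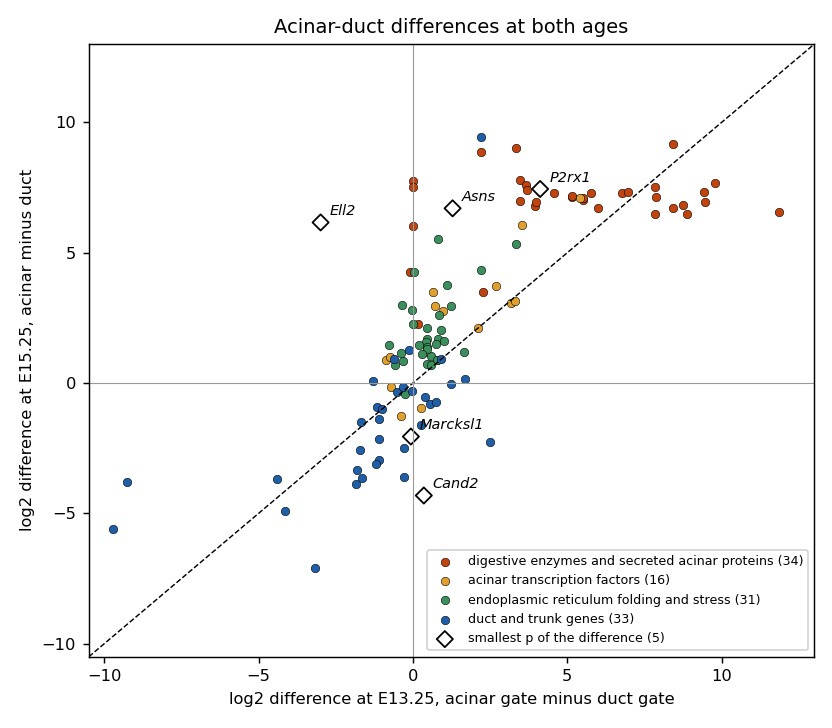
Log2 difference between acinar and duct gates at E15.25 (vertical) against E13.25 (horizontal) for the genes of 4 lists, from 1 fit of both ages, with the 5 genes of smallest p marked by diamonds. The dashed line marks equal differences. Ell2 lies at -2.99 on the horizontal and 6.16 on the vertical axis, and no gene passed the test of the change.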

How the data were processed

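Single-cell mRNA libraries of 672 cells were used, 261 of them kept E15.25 cells. The deposited values are raw read counts per Ensembl gene, which the authors made with GSNAP and HTSeq 0.5.3p3 on mm10, per the submitters' processing notes. The strand setting, the handling of reads with several matches and the sort gates are not given in the sources used here. The reads carry no molecular identifiers, so intervals and floors cover counting error only. Reads counted as not aligned were a median of 39.1% to 49.8% of all of a cell's counted reads in the 6 sums. They fill 1 of 5 rows that name no gene, and the share of the other rows is not given here. The ERCC spike-ins held a median of 12.2% to 15.8% of a cell's reads on genes and spike-ins. The rows that name no gene and the spike-ins were left out of library sizes and tests.

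Each well held 1 sorted cell and no doublet caller was run. Counts were summed per plate and side and tested with edgeR 4.0.16 (R 4.3.3) by the quasi-likelihood test, with filterByExpr, TMM scaling, Benjamini-Hochberg adjustment and the plate as block. The block follows from both sides of a pair coming from 1 plate. Deviations from the side means correlated only weakly within a plate, at 0.051 to 0.07. The values between plates, -0.052 to -0.009, are no separate evidence of pairing, since deviations from a mean must cancel out over the plates. Both ages were compared by an interaction. The 7 gate genes stayed out of tests and counts. DESeq2 1.42.0, other scalings, filters and gates, and leaving out each plate were alternatives. The test was tested on simulated data, where it missed many of the changes put in.

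Members, lists and tests were chosen with earlier results of these data known. The rule for named genes takes the gate genes, the enzyme, acinar factor and duct lists, the 4 smallest p-values of each list, a short set of known genes, the 10 largest differences in each direction among called genes with 20 CPM or more on the higher side, and the 5 smallest p-values of the interaction. Values of some listed genes are not reported here.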

Additional observations from a re-analysis of the deposited data

Results flagged for a closer look

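Ell2 had 1 plate apart from the other 3 on each side at E13.25. Its acinar level was 14.4 CPM in plate 3 and 0.365 to 2.23 CPM in the others (Dixon ratio 0.867), and its duct level was 5.40 CPM in plate 4 and 25.7 to 28.7 CPM in the others (Dixon ratio 0.871, both above the 95% limit for 4 samples). Chance flags about 1 in 20 groups, and 10 groups were checked.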

How the results depend on the processing

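All 290 called genes kept their sign under each of the 15 alternatives that gave them a value. Of these genes 178 stayed called under all 12 alternatives that left no plate out, and 17 under all 15. Leaving out a plate gave 27 to 75 higher and 3 to 19 lower genes, and for the ages 0 to 3 genes with a larger difference at E15.25. DESeq2 called 1233 higher and 1332 lower, and for the ages 563 and 269. With no replicate block 478 were higher and 313 lower, and for the ages 19 and 13, against 180, 110 and 0 with the pairing by plate. Scaling cells to 1 total gave 409 and 315. With no filter on low counts 187 were lower, and 6 genes had a larger difference at E15.25. Of 2 alternatives chosen after seeing the data, library sizes with no TMM gave 256 lower and leaving out acinar cells with Spp1 at 1000 CPM or more gave 195 lower.

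Of the named genes, those that changed sign were not called. Leaving out a plate gave a range of -0.80 to 0.77 for Eng, -0.33 to 0.46 for Fos, -0.53 to 1.30 for Hbb-bt, -1.85 to 0.96 for Hey1, -0.034 to 0.69 for Jag1, -0.64 to 0.10 for Muc1, -0.33 to 0.18 for Tcf12 and -0.55 to 0.00598 for Top2a. With no TMM, Fos was at -0.17, Hbb-bt at -0.0625, Jag1 at -0.052, Mki67 at -0.10 and Pdx1 at -0.12. With cells scaled to 1 total, Eng was at 0.36 and Pdx1 at -0.36. Leaving out the cells with most genes (5%) put Fos at -0.032, Pdx1 at -0.31, Tcf12 at 0.086 and Top2a at 0.26. Without duct cells with Neurog3, Eng was at 0.92 and Neurog3 at 0.79. Hbb-bt was at -1.79 with no replicate block and at -0.12 without acinar cells with Spp1. The change of P2rx1 between the ages was -0.067 with the Cpa1 limit at 1000 CPM. The cause of these changes was not tested. Depth limits genes with few reads, such as Pnlip and Cftr.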
